A study of Arabidopsis thaliana with 12 samples.

Results

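The inverted repeat is a stretch of the chloroplast genome that is present in 2 copies of opposite orientation, called IRb and IRa, which flank the small single-copy region. Its members here are the 100 bp bins at the positions of either copy (the last IRa bin runs past the end of the sequence): 262 bins per copy, of which 215 are listed for IRb and 212 for IRa in the deposited table. These 427 bins stand among 152484 listed bins in all, and among 1334 listed chloroplast bins. In the reference TAIR10.1 each copy is 26264 bp long (chrC:84171-110434 and chrC:128215-154478), and the copies are reverse complements with 0 mismatches. Small RNA was sequenced from inflorescences of Arabidopsis thaliana plants in the Col-0 background, with 3 biological replicates of each of 4 genotypes: heso1-1, urt1-1, ntp4-1 and the wild type Col-0. All plants were untreated and grown at 22 °C under a cycle of 16 h light, 8 h dark. The labels give the mutants by allele only, and age is not given in the sources used here. Values are RPM, read numbers scaled to the library total, and a level in this text is an RPM value.

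The chloroplast inverted repeat carries the plastid rRNA operon, which is transcribed as a long precursor in the order 16S, tRNA-Ile, tRNA-Ala, 23S, 4.5S and 5S and is then cut and trimmed to the mature rRNAs. It also holds ndhB, a subunit of the NDH complex of cyclic electron flow, and genes of ribosomal proteins and tRNAs. In plastids, proteins of the pentatricopeptide repeat family can sit on RNA ends and block exonucleases, and short RNAs can accumulate at the bound sites. HESO1 and URT1 are nuclear-encoded uridylyltransferases that add U to RNA 3′ ends, and NTP4 belongs to the nucleotidyltransferase proteins. The study's title concerns NTP4 and the strands of miRNA duplexes, so chloroplast RNA lies beside its main question. Small RNA of a mutated gene does not measure its mRNA, so the genotypes could not be checked here, and in whole inflorescences fewer green cells and less chloroplast RNA per cell cannot be told apart.

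The bin grid of IRa is shifted against the mirrored grid of IRb. A bin of IRb shares 48 bp with one IRa bin and 52 bp with the next, so a peak that fills 1 bin in each copy is narrowed to a stretch of 48 or 52 bp. Bins carry no strand, and which base of a read sets its bin is not given, so the edges of a stretch are uncertain by up to a read length. The sequences below are those of 5 of the 10 highest peaks, chosen because they hold the 4 highest and the one at a tRNA gene. They are from RefSeq (TAIR10.1), written 5′ to 3′ on the strand of the named gene, with bases inside that gene in capitals.
Before rrn23S, plus strand, chrC:104601-104648: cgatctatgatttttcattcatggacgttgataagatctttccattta
At the start of ndhB, minus strand, chrC:97149-97194: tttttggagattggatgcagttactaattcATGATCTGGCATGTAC
In the 3′ part of rrn4.5S, plus strand, chrC:107649-107700: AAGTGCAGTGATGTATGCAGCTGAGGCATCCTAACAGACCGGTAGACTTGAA
At the 3′ end of rrn23S, plus strand, chrC:107449-107500: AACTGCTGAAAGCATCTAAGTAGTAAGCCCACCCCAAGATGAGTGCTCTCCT
At trnR, plus strand, chrC:108301-108348: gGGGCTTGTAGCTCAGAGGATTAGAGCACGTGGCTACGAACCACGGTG
The ndhB line starts 30 bases before the start codon and shows 16 coding bases; the first 6 bases of that 52 bp stretch are left out. The rrn4.5S stretch stops 1 base before the annotated end of the gene, and the rrn23S stretch ends exactly at it.

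The libraries differed in depth and composition, within genotypes as well as between them. Whole reads could be recovered for 11 libraries, with implied totals of 2761330 (heso1-1 replicate 3) to 11191516 reads (heso1-1 replicate 2). The listed bins hold 28.7% of the total in ntp4-1 replicate 1 and 43.6% to 67.5% in the others. The repeat took 92.1% to 94.6% of the listed chloroplast RPM in 5 libraries, which were replicate 1 of every genotype and urt1-1 replicate 3. It took 76.0% to 87.3% in the other 7. No label names these sets. Tests over the 4 genotypes are given also without replicate 1 of every genotype, an alternative chosen after the data were seen. Markers of other tissues also differed: the summed RPM of 3 pollen miRNA genes was 289 to 853 in ntp4-1, 126 to 2427 in heso1-1 and 347 to 2072 in urt1-1, against 1485 to 2854 in Col-0. The sum of 5 floral MIR172 genes was 8.30 to 397 in ntp4-1, 68.1 to 3302 in heso1-1 and 27.1 to 540 in urt1-1, against 30.3 to 263 in Col-0. The part of either in the results below was not tested.

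The repeat took 2.13% to 5.00% of all reads. Both copies summed to 33398, 21298 and 33652 RPM in heso1-1, to 36060, 26084 and 46399 RPM in urt1-1, and to 36689, 49504 and 50007 RPM in ntp4-1, against 28943, 34582 and 35955 RPM in Col-0. Every ntp4-1 library lay above every Col-0 library, while heso1-1 and urt1-1 overlapped Col-0. The ntp4-1 mean was 45400 ± 7548 RPM against 33160 ± 3716 RPM in Col-0 (SD, n = 3), a ratio of geometric means of 1.36 with exact permutation p = 0.1, the smallest that 3 against 3 libraries allow (two-sided; adjusted p = 0.6 over 12 such comparisons). The ratios of heso1-1 and urt1-1 over Col-0 were 0.873 (exact permutation p = 0.5) and 1.07 (p = 0.8). Over all 4 genotypes the exact permutation p was 0.186, and 0.324 without replicate 1 of each. The log2 difference of ntp4-1 over Col-0 was 0.45, and 0.50 without replicate 1 of both.

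Small RNA was concentrated in a few narrow peaks, and the same 10 mirrored positions led both copies. The highest stretch, just before rrn23S, held 49.98% of the summed RPM of the repeat, taken over all 12 libraries. The start of ndhB held 27.2% and the 3′ part of rrn4.5S 5.98%. The fourth, at the 3′ end of rrn23S, the end that faces the 4.5S rRNA in the precursor, held 1.95%. The next 6 held 0.607% to 1.67% each: the end of rrn5S, the stretch 12 to 63 bases before rrn16S, the start of rrn5S, a stretch inside rrn16S, the start of trnR, and the end of rpl23 with the spacer to rpl2. In single libraries the 3 highest together held 66.7% to 90.9% of the repeat and the 10 together 83.6% to 95.1%. With 1% of a copy as the limit of a peak, the last bin inside it in IRb was the one before rrn16S (1.14%) and the first outside was at the start of rrn5S (0.878%). In IRa the corresponding bins were the start of rrn5S (1.00%) and the one inside rrn16S (0.898%).

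**Figure D1:**
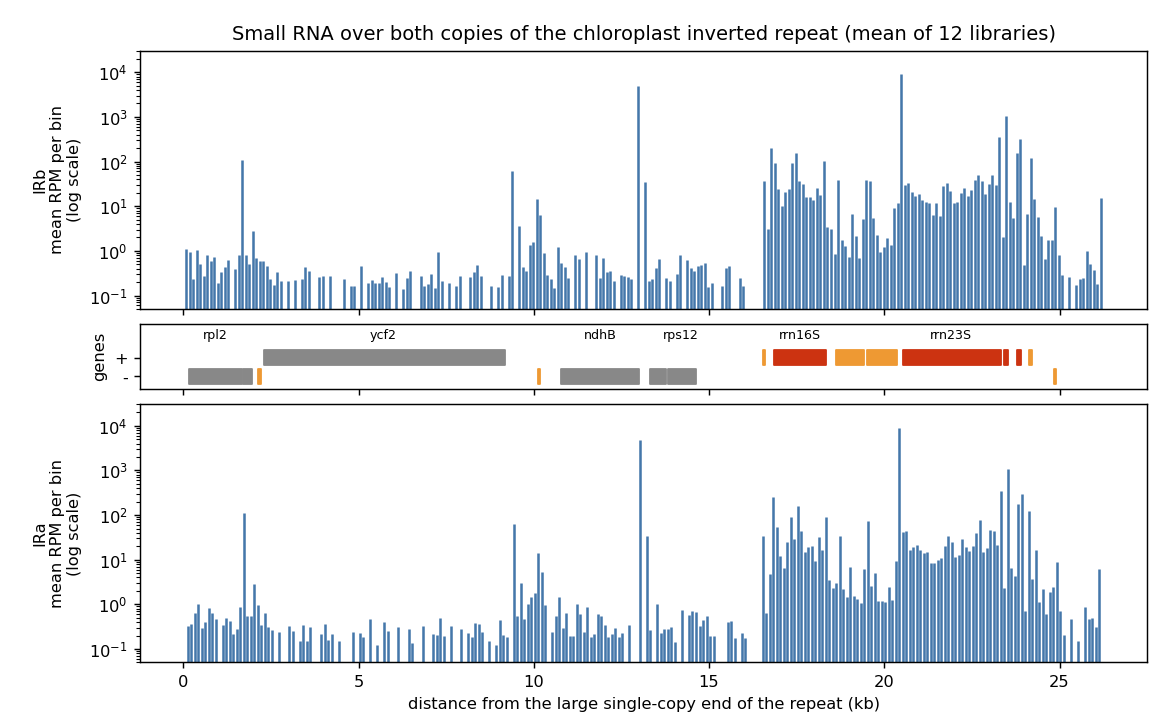
Mean RPM of each listed bin over 12 libraries (log scale) against distance from the large single-copy end of the repeat in kb, for IRb above and IRa below, with the annotated genes by strand between them (rRNA red, tRNA orange, others grey). Both copies show the same 2 tallest lines, before rrn23S (9016 and 9001 RPM per bin in IRb and IRa) and at the start of ndhB (4902 and 4906 RPM).

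Most peaks lay at or near gene ends. Of the 10 narrowed stretches, 9 were within 50 bp of an annotated start or end of a gene, the exception being the one 637 bases into rrn16S. Among all 215 listed IRb bins, 26 (12.1%) held such an end, against 7 of the 10 highest. Of the 10 narrowed stretches, which are shorter than a bin, 6 held one. How many of all bins lie within 50 bp of an end was not counted, so the 9 of 10 has no background. The stretch before rrn23S lay 43 to 90 bases upstream of the mature 23S rRNA and outside every annotated gene. It had 31.25% G and C, against 48.1% in the stretch inside rrn4.5S. The neighbouring IRa bin, which covers the other part of the same IRb bin, averaged 41.2 RPM against 9001 RPM, so nearly all of this signal fell in the 48 bp shown. For rrn4.5S the neighbouring IRa bin averaged 2.32 RPM against 1082 RPM. The bins that cover rrn23S itself were far lower than its leader: the IRb gene averaged 34.9 RPM per 100 bp of its length, and rrn16S 45.5 RPM per 100 bp. The protein gene ycf2, the longest of the repeat, averaged 0.175 RPM per 100 bp of its length and rpl2 0.526, with bins that are not listed counted as 0.

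Of the stretch before rrn23S, the libraries held 16376, 8733 and 13619 RPM in heso1-1, 21676, 11991 and 29192 RPM in urt1-1, and 16739, 23737 and 24598 RPM in ntp4-1, against 16567, 16428 and 16549 RPM in Col-0 (both copies summed). The 3 Col-0 libraries were close to each other and the mutants were not: every heso1-1 library lay below and every ntp4-1 library above the Col-0 range, and urt1-1 lay on both sides. The gap was small in the nearest libraries, heso1-1 replicate 1 and ntp4-1 replicate 1. Over the 4 genotypes the exact permutation test gave p = 0.211 (adjusted p = 0.421 over 10 peaks), and p = 0.343 without replicate 1 of each. The exact permutation p was 0.0158 without urt1-1 replicate 2, a single omission among those possible, so no weight is placed on it. In the fit over all bins described below, both bins of this stretch had a log2 fold change of 0.37 in ntp4-1 (limma adjusted p = 0.350 and 0.351). Both passed in the limma fit without replicate 1 of both groups (limma adjusted p = 0.00454 and 0.00442), which called 17.7% of all bins tested. Over all alternatives to the main limma fit, the adjusted p of these bins reached 0.968 in IRb and 0.972 in IRa.

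The start of ndhB stood apart in ntp4-1. It held 15505, 15602 and 15522 RPM in ntp4-1, 9655, 5907 and 3549 RPM in heso1-1 and 8386, 6883 and 11375 RPM in urt1-1, against 7820, 7368 and 10123 RPM in Col-0. All 3 ntp4-1 libraries were above each of the other 9 and close to each other, while heso1-1 and urt1-1 overlapped Col-0. The means were 15543 ± 52 RPM in ntp4-1 and 8437 ± 1477 RPM in Col-0 (SD, n = 3), 1.84-fold higher in ntp4-1. Over the 4 genotypes the exact permutation p was 0.0153, and 0.0699 after adjustment over the 10 peaks. The unadjusted p was 0.000779 to 0.0523 with 1 library left out, and at most 0.0334 unless an ntp4-1 library was the one left out. Without replicate 1 of every genotype the exact permutation p was 0.0667. As a share of the repeat, the ndhB stretch took 34.9% ± 6.35 in ntp4-1 and 25.5% ± 3.67 in Col-0 (exact permutation p = 0.117 over the 4 genotypes). The single ntp4-1 shares were 42.3%, 31.5% and 31.0%, so replicate 1 was not close to the others on this scale.

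The 3′ part of rrn4.5S went the other way in ntp4-1. This rRNA is the plastid counterpart of the 3′ end of bacterial 23S rRNA. Its stretch held 859, 320 and 362 RPM in ntp4-1, 2313, 2269 and 5263 RPM in heso1-1 and 2686, 1336 and 1529 RPM in urt1-1, against 1916, 4161 and 2865 RPM in Col-0. Every ntp4-1 library was below each of the other 9, and heso1-1 and urt1-1 overlapped Col-0. The means were 514 ± 300 RPM in ntp4-1 and 2980 ± 1127 RPM in Col-0 (SD, n = 3), 5.80-fold lower in ntp4-1. The exact permutation p over the 4 genotypes was 0.00519 (adjusted p = 0.0519 over 10 peaks). It was 0.00519 to 0.0162 with 1 library left out, and 0.0476 without replicate 1 of every genotype. Its share of the repeat was 1.24% ± 0.957 in ntp4-1, 11.1% ± 4.37 in heso1-1 and 5.29% ± 2.08 in urt1-1, against 8.87% ± 2.82 in Col-0 (exact permutation p = 0.0113, adjusted p = 0.0565, and p = 0.0190 without replicate 1 of every genotype).

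**Figure D2:**
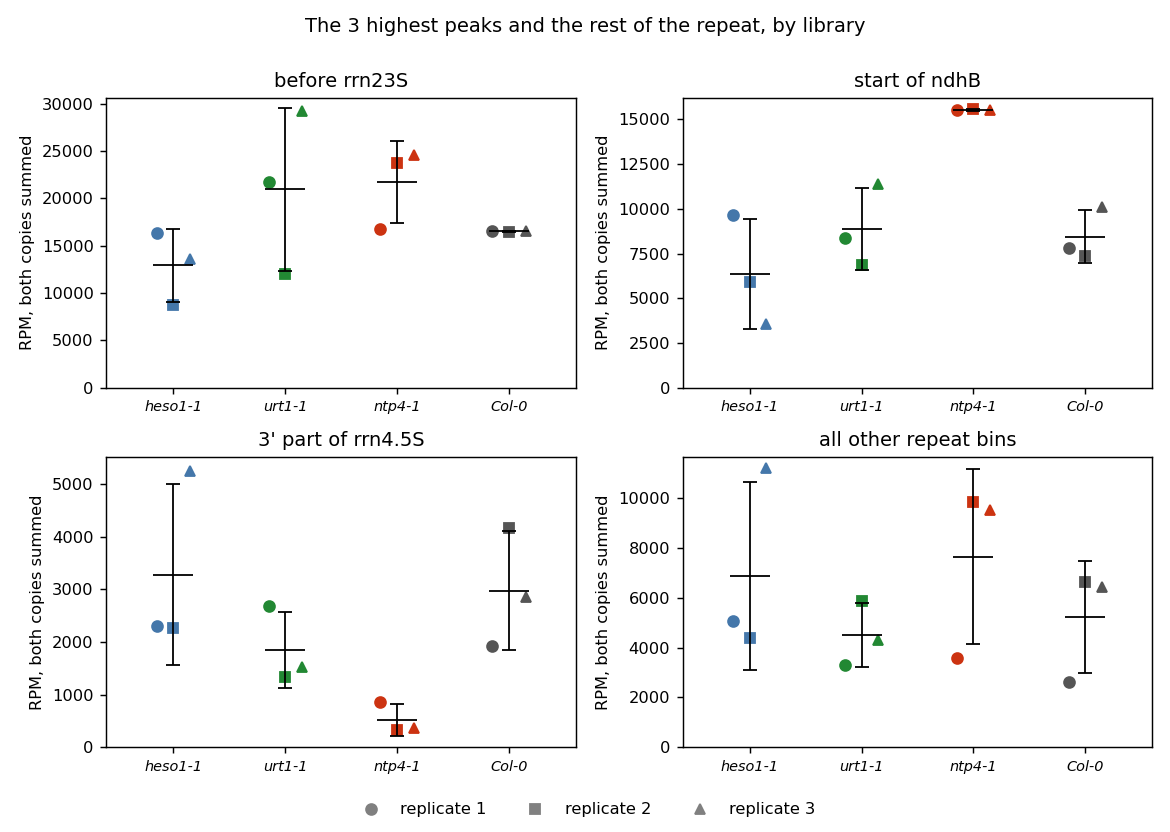
RPM of both copies summed in each library for the 3 highest stretches and for all other repeat bins; symbols mark replicates, and black bars give the mean and SD of 3 libraries. At the start of ndhB the 3 ntp4-1 libraries (15505 to 15602 RPM) lie above all others, and in the 3′ part of rrn4.5S (320 to 859 RPM) below all others.

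Outside the 3 highest stretches the libraries held 5054, 4389 and 11222 RPM in heso1-1, 3312, 5872 and 4303 RPM in urt1-1 and 3586, 9845 and 9526 RPM in ntp4-1, against 2640, 6625 and 6418 RPM in Col-0. Replicate 1 was the lowest of its genotype in urt1-1, ntp4-1 and Col-0. The stretch before rrn16S had the largest ratio of highest to lowest library among the 10 peaks, with 53.1, 1626 and 1479 RPM in ntp4-1, 78.7, 313 and 595 RPM in heso1-1 and 104.98, 621 and 94.4 RPM in urt1-1, against 42.1, 272 and 289 RPM in Col-0. Replicate 1 was at 42.1 to 104.98 RPM in every genotype, so the groups overlapped (exact permutation p = 0.691 over the 4 genotypes, and 0.162 without replicate 1 of each). The end of rpl23, a protein of the large ribosomal subunit, was alike in form, with 21.3, 668 and 472 RPM in ntp4-1 against 23.8, 118 and 133 RPM in Col-0.

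The other peaks overlapped between every mutant and Col-0. The 3′ end of rrn23S held 906, 1271 and 996 RPM in ntp4-1, 659, 346 and 457 RPM in heso1-1 and 389, 715 and 727 RPM in urt1-1, against 273, 640 and 1045 RPM in Col-0. Col-0 replicate 3 reached the ntp4-1 range, and the exact permutation p over the 4 genotypes was 0.191 (0.0571 without replicate 1 of each). The stretch inside rrn16S held 179 to 476 RPM in ntp4-1, 115 to 911 RPM in heso1-1 and 159 to 375 RPM in urt1-1, against 190 to 214 RPM in Col-0. The start of trnR, the tRNA-Arg gene, held 29.9 to 568 RPM in ntp4-1, 116 to 319 RPM in heso1-1 and 87.1 to 183 RPM in urt1-1, against 56.9 to 539 RPM in Col-0. For these 2 the exact permutation p was 0.690 and 0.829.

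The start of rrn5S set heso1-1 replicate 3 apart. It held 270, 266 and 1830 RPM in heso1-1, 163, 98.7 and 189 RPM in urt1-1 and 197, 196 and 223 RPM in ntp4-1, against 143, 274 and 218 RPM in Col-0. As a share of the repeat this was 0.809%, 1.249% and 5.44% in heso1-1, all above the 0.379% to 0.793% of the other 9 libraries. The exact permutation p of the share over the 4 genotypes was 0.000974, the only one of the 10 peaks past 0.05 after adjustment (adjusted p = 0.00974). Without replicate 1 of every genotype it was 0.0190, without heso1-1 replicate 3 it was 0.005, and it was 0.135 to 0.163 without any 1 library of urt1-1, ntp4-1 or Col-0. Leaving out a library of another genotype makes that group smaller. Assignments that place heso1-1 replicate 3 in the smaller group then score higher. How much of the rise in p came from this was not tested. These omissions therefore cannot tell how far the result rests on the library left out. Heso1-1 replicate 3 is also the shallowest library. For the level at the start of rrn5S heso1-1 overlapped Col-0, and the exact permutation p over the 4 genotypes was 0.0210. That p was 0.0699 after adjustment over the 10 peaks, and 0.0762 unadjusted without replicate 1 of every genotype. For the level at the end of rrn5S the exact permutation p over the 4 genotypes was 0.931.

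The rRNA genes, leaders excluded, took a share of the repeat of 19.0%, 23.3% and 40.0% in heso1-1, of 13.6%, 19.2% and 10.2% in urt1-1 and of 10.3%, 11.3% and 10.1% in ntp4-1, against 13.1%, 25.2% and 19.5% in Col-0. The 3′ part of rrn4.5S is included in this share and alone took 1.24% of the repeat in ntp4-1 and 8.87% in Col-0. The rRNA share is thus not a result separate from the lower rrn4.5S values given above. The ntp4-1 mean of the rRNA share, 10.6% ± 0.689, lay below every Col-0 library (19.3% ± 6.06, exact permutation p = 0.1, the smallest possible). Over the 4 genotypes the exact permutation p was 0.0449, and 0.180 after adjustment over 4 measures. It was 0.0252 to 0.111 with 1 library left out, and under 0.05 only without heso1-1 replicate 1 or Col-0 replicate 2. Without replicate 1 of every genotype it was 0.114. The highest stretch took 43.5% ± 4.80 of the repeat in heso1-1, 56.3% ± 9.08 in urt1-1 and 47.6% ± 1.81 in ntp4-1, against 50.3% ± 6.09 in Col-0 (p = 0.146 by exact permutation over the 4 genotypes, and 0.238 without replicate 1 of each). The repeat's share of the chloroplast gave an exact permutation p of 0.798, and 0.410 without replicate 1 of each.

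**Figure D3:**
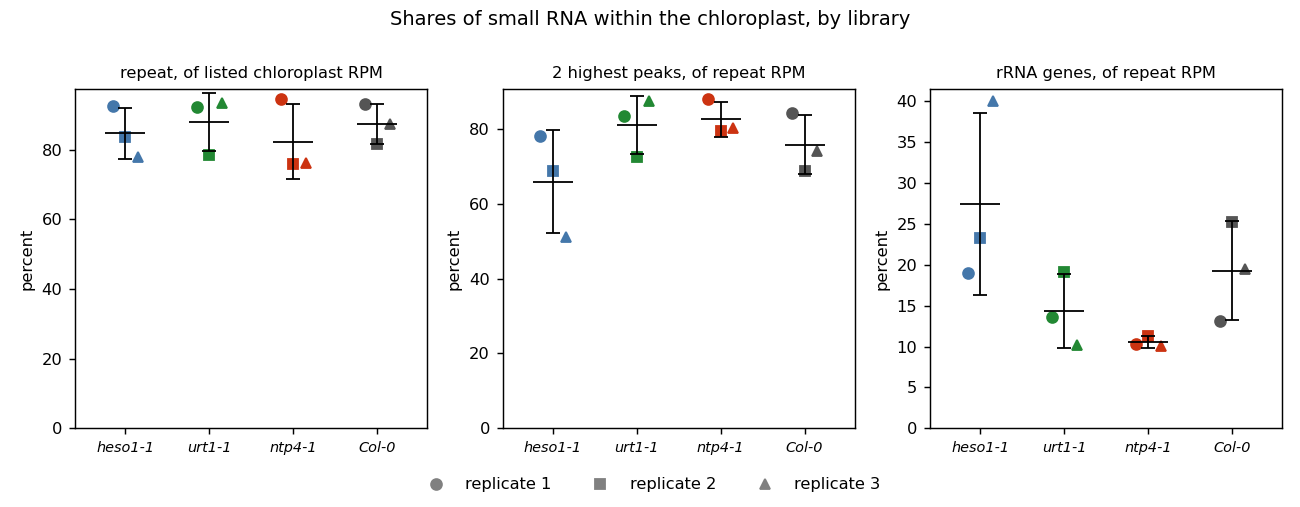
Percent of listed chloroplast RPM in the repeat (left), and percent of repeat RPM in the 2 highest stretches (middle) and in rRNA genes (right), by library; symbols mark replicates and black bars the mean and SD of 3 libraries. Replicate 1 reaches 92.1% to 94.6% in every genotype in the left panel, and the rRNA share is 10.1% to 11.3% in ntp4-1.

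Each repeat bin was then compared between each mutant and Col-0 in a fit over the whole table (limma on log2(RPM + 0.5), for bins that averaged 1 RPM or more over both groups, Benjamini-Hochberg over all of them, threshold 0.05). Of the 427 listed repeat bins, 180 passed the filter for heso1-1, 179 for urt1-1 and 206 for ntp4-1. In heso1-1, 0 repeat bins changed, against 0.0527% of all bins tested, with 5 at an unadjusted p under 0.05. The replicate block left that count at 0 (23 at an unadjusted p under 0.05), against 0.0321% of all bins, 0.00458% higher and 0.0275% lower. In urt1-1, 0 changed, against 0.186% of all bins, with 2 at an unadjusted p under 0.05. In ntp4-1, 0 changed, against 0.0756% of all bins, with 9 at an unadjusted p under 0.05. On the recovered reads, which leave out Col-0 replicate 3, edgeR called 0 repeat bins in each comparison and DESeq2 called 0, 1 and 5 in heso1-1, urt1-1 and ntp4-1. DESeq2's share over all bins was 0.261%, 0.513% and 0.491%, beside 0.559% of the repeat bins in urt1-1 and 2.43% in ntp4-1. For heso1-1 the median log2 fold change of the repeat bins was 0.25, beside -0.23 for all bins tested. For urt1-1 these medians were -0.15 and -0.40, and for ntp4-1 0.37 and -0.75. The repeat median of heso1-1 was -0.14 without Col-0 replicate 1, -0.03 without heso1-1 replicate 3 and -0.08 without replicate 1 of both groups. That of urt1-1 was 0.06 without Col-0 replicate 2, and that of ntp4-1 was -0.01 without Col-0 replicate 1. TMM scaling moved the median of all bins to -0.04, -0.02 and -0.11 and that of the repeat to 0.46, 0.26 and 1.12, so the sign in urt1-1 depends on the scale. Bins of the single-copy chloroplast had medians of 0.05, -0.03 and 0.60 and mitochondrial bins of -0.07, -0.24 and 0.21.

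In ntp4-1 the leading bins by p-value were those of the peaks. The 3′ part of rrn4.5S had a log2 fold change of -2.63 (SE 0.47) in IRa and -2.60 (SE 0.49) in IRb, with limma adjusted p = 0.0944 and 0.0982. At the start of ndhB the log2 fold change was 0.90 (SE 0.22) in IRa and 0.89 (SE 0.22) in IRb, with adjusted p = 0.152 for both. Same-numbered libraries of ntp4-1 and Col-0 deviated together, and with the replicate number as a block these 4 bins passed (adjusted p = 9.89e-07 and 1.73e-06 for rrn4.5S, 0.000698 and 0.000748 for ndhB). After TMM scaling the values for rrn4.5S were -1.74 and -1.72 and those for ndhB 1.78 and 1.77, with the same signs and adjusted p = 0.368 to 0.602. The adjusted p of these 4 bins over all alternatives spanned 9.89e-07 to 1.00.

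With the block 24 of 206 repeat bins were called in ntp4-1, 22 higher and 2 lower, which is 11.7% of them. Of all bins tested 27.5% were called in that fit, 0.851% higher and 26.7% lower. The 2 lower bins were the pair in rrn4.5S. The higher ones included both copies at the start of ndhB, at the 3′ end of rrn23S (526.95 against 329.5 RPM in IRa and 530.8 against 323.1 RPM in IRb, ntp4-1 against Col-0), before rrn16S (551.8 against 120.2 and 500.9 against 80.7 RPM) and at the end of rpl23 (192.9 against 45.9 and 194.0 against 45.8 RPM). At the end of rpl23 ntp4-1 replicate 1 lay below every Col-0 library, and before rrn16S below Col-0 replicates 2 and 3, as given above. The other 14 higher bins averaged 2.32 to 23.3 RPM in ntp4-1 and were at 10.02 RPM or less in Col-0. Of the 22 higher bins 6 were under 1 RPM in Col-0 and passed the filter through ntp4-1 alone, so they had to be higher there. The split of 22 to 2 is therefore no measure of direction. Without ntp4-1 replicate 1, 17 repeat bins were called without the block, and without replicate 1 of both groups 54, 49 of them higher and 5 lower. These were 8.21% and 24.9% of the repeat bins, beside 6.70% and 17.7% of all bins.

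**Figure D4:**
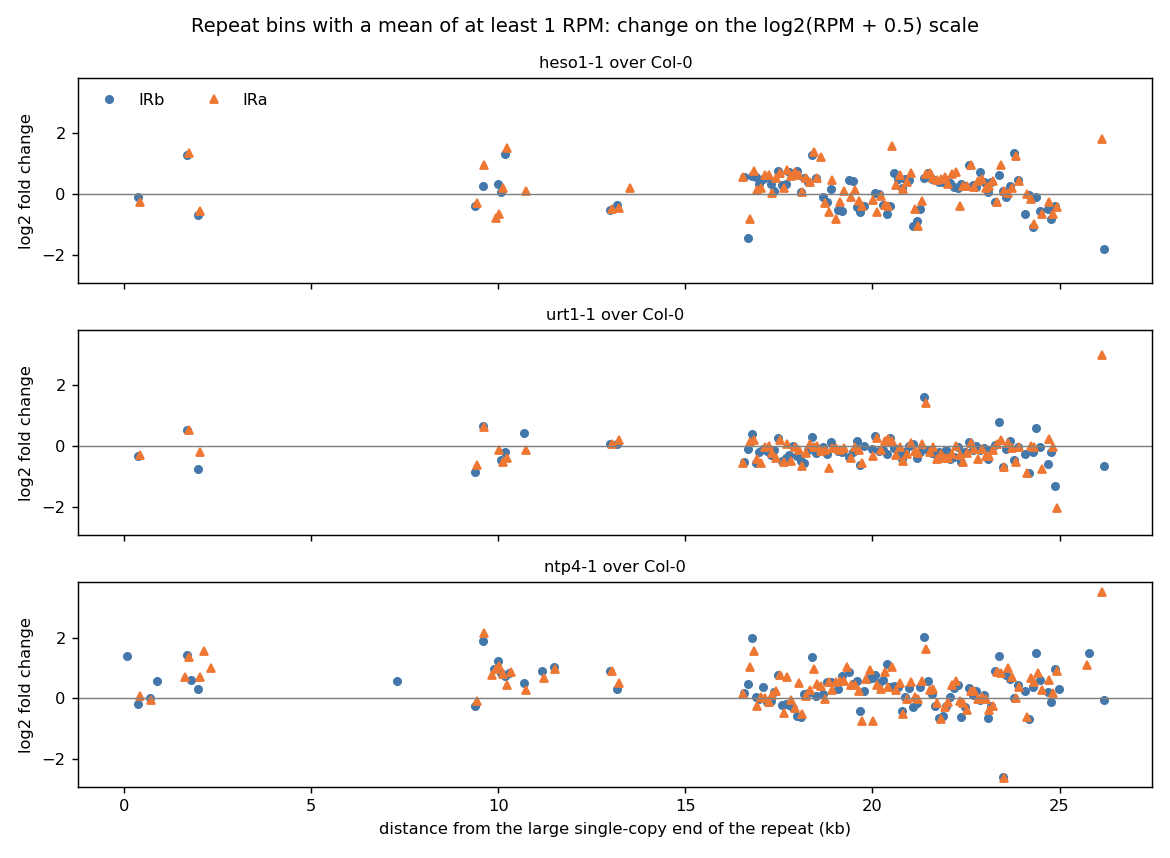
Log2 fold change over Col-0 of each tested repeat bin against distance from the large single-copy end in kb, for heso1-1, urt1-1 and ntp4-1 from top to bottom, with IRb as circles and IRa as triangles. In ntp4-1 the mirrored pair in rrn4.5S lies lowest at -2.60 and -2.63, and the highest point, at 3.51, is the IRa bin next to the small single-copy end.

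In heso1-1 and urt1-1 the bins with the smallest p-values are given as values. In heso1-1 they were the bin just after rrn16S in IRb, which is spacer but for the last 2 bases of the gene and averaged 4.76 ± 1.27 RPM in heso1-1 and 1.68 ± 0.528 RPM in Col-0, and its mirror in IRa at 5.91 ± 2.26 and 2.01 ± 0.960 RPM. The next higher were a low bin at the start-side of rrn4.5S in IRa (3.11 and 1.38 RPM) and both bins at the start of rrn5S. On the lower side were bins beyond trnR, at 7.11 ± 2.41 RPM in heso1-1 and 15.1 ± 1.64 RPM in Col-0 for IRb and 7.89 ± 1.71 and 16.0 ± 3.21 RPM for IRa. A bin between trnV and rrn16S was at 1.26 and 3.34 RPM for IRb, with its mirror at 2.01 and 3.98 RPM, and a bin in the intron-containing trnI gene of the operon was at 3.54 and 6.78 RPM. All 10 had limma adjusted p = 0.775, and at least 0.160 with the block. In urt1-1 the higher ones were the IRa bin next to the small single-copy end, a pair inside rrn23S (8.68 ± 4.94 and 3.07 ± 2.52 RPM in urt1-1 and Col-0 for IRa, 6.68 and 2.31 RPM for IRb) and low bins before rrn4.5S and at chrC:93701-93800. The lower ones were chrC:93501-93600 at 39.6 ± 6.99 RPM in urt1-1 and 74.8 ± 25.01 RPM in Col-0, both bins of rrn4.5S, the trnN bin of IRa and a bin in trnA. Their limma adjusted p was 0.469 to 0.754.

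The genes of the repeat were compared in the same way, as 34 loci that sum the bins whose midpoint lies in the gene. Because of the shifted grid the 2 copies of a gene need not hold the same bins: the ndhB peak bin counts for the IRb locus (mean of 12 libraries 4909 RPM) and not for the IRa locus (7.41 RPM), and the rpl23 peak bin for IRa (112 RPM) and not for IRb (1.32 RPM). Gene values are therefore a description of the annotated span in each copy, and the identical copies share their reads. By limma 0 of 31, 32 and 33 tested loci changed in heso1-1, urt1-1 and ntp4-1, with 0, 0 and 3 at an unadjusted p under 0.05. Among all loci tested 0.0575%, 0.49% and 0% were called. On the recovered reads edgeR called 0 repeat loci in each comparison and DESeq2 called 0, 0 and 9 (27.3% of the repeat loci in ntp4-1), beside 0.905%, 1.93% and 3.42% of all loci.

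By role, the 8 rRNA loci had median log2 fold changes of 0.33 (heso1-1), -0.17 (urt1-1) and 0.24 (ntp4-1), and 0 passed in each comparison. The locus of rrn16S, the small-subunit rRNA, averaged 695 ± 224 RPM in ntp4-1 and 608 ± 248 RPM in Col-0 in IRb. That of rrn23S, the large-subunit rRNA, averaged 1130 ± 253 RPM in ntp4-1 and 931 ± 378 RPM in Col-0. The lower rrn4.5S values in ntp4-1 thus stood beside overlapping values of the other rRNA genes of the operon. Of 14 tRNA loci 12, 12 and 13 were tested, with medians of -0.01, -0.52 and 0.41. Among them trnR, for tRNA-Arg, ranged from 13.96 to 278 RPM in ntp4-1 and from 27.0 to 273 RPM in Col-0 in IRb, and the trnI and trnA genes of the operon, which hold introns, were at 69.2 ± 7.68 and 84.4 ± 38.3 RPM in ntp4-1 and at 54.7 ± 4.53 and 55.2 ± 9.07 RPM in Col-0. The 8 ribosomal protein loci (rpl2, rpl23, rps7 and the repeat part of rps12) had medians of 0.40, 0.03 and 0.53 over 7, 8 and 8 tested, and the ycf2 loci averaged 7.56 to 18.6 RPM over the groups. The median of all loci tested was -0.30, -0.41 and -0.80, all on the deposited scale. Under TMM scaling the median repeat locus of urt1-1 was at 0.28 instead of -0.14.

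With the block 5 of 33 repeat loci passed in ntp4-1, and 1.42% of all loci were higher and 21.8% lower in that fit. Both copies of rrn4.5S fell (adjusted p = 0.00314 in IRa and 0.00376 in IRb), to 253 and 261 RPM in ntp4-1, against 1497 and 1484 RPM in Col-0. The IRb locus of ndhB rose, to 7765 ± 45.9 RPM in ntp4-1 against 4224 ± 714 RPM in Col-0 (adjusted p = 0.0298). The IRa locus of rpl23 was also called as higher (adjusted p = 0.0499946). It held 10.5, 335 and 239 RPM in ntp4-1, against 12.9, 60.2 and 67.2 RPM in Col-0. At this locus ntp4-1 replicate 1 thus lay below every Col-0 library, and without the block the limma adjusted p was 0.454. The trnI gene near rpl23 in IRa was called too (3.00 RPM in ntp4-1 and 0.511 RPM in Col-0, adjusted p = 0.0426), but it passed the filter through ntp4-1 alone and so had to be higher there. Outside the repeat, log2 fold changes in ntp4-1 were positive for 10 of 10 tested single-copy ndh loci and 15 of 15 ribosomal protein loci. They were also positive for 16 of 23 tRNA loci and 43 of 43 other single-copy loci. The medians were 0.61, 0.54, 0.40 and 0.62, with 0 passing without the block. Of all loci tested 1106 of 6759 had a positive value. Every ntp4-1 library was above every Col-0 library at 9 of 91 single-copy loci, and below at 1. Among 6552 nuclear loci these were 111 and 2664. The single-copy bins summed to 2103, 15638 and 15581 RPM in ntp4-1, against 2185, 7733 and 5236 RPM in Col-0. In that sum ntp4-1 replicate 1 was below every Col-0 library.

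The 2 copies received equal shares of the reads. IRa held 49.7% to 50.4% of the repeat RPM in the 12 libraries, and the exact 95% binomial interval held 50% in 10 of the 11 libraries with whole reads (intervals cover counting error only). IRa held 49.5% to 50.2% of the stretch before rrn23S, 49.6% to 50.4% of that at ndhB and 48.2% to 51.2% of that in rrn4.5S. At the end of rrn5S the IRa bin held 41.1% to 49.4%, at the start of rrn5S 51.7% to 56.7% and before rrn16S 50.6% to 68.2%; there the signal extends over the edge of a bin in 1 grid and not in the other. Of 86 windows of 200 bp with at least 5 RPM, 85 lay within the range that the mirrored bins allow.

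The exception was the window next to the small single-copy region, at the end of the repeat that holds a piece of ycf1. There IRa held 100% of the RPM in heso1-1 replicate 3 and 0% in heso1-1 replicate 1 and in Col-0 replicates 1 and 3. Taken as 3 counts of the total, a count of 0 allows shares of up to 1.73% in heso1-1 replicate 1 and 1.48% in Col-0 replicate 1, and the exact two-sided 95% intervals reach 2.11% and 1.80%. IRa held 51.3%, 3.23% and 45.9% in urt1-1 replicates 1 to 3 and 45.9%, 1.60% and 64.1% in ntp4-1, against 0%, 0.730% and 0% in Col-0, and 0.625% in heso1-1 replicate 2. The sum of both bins was far steadier, at 17.8, 37.9 and 37.7 RPM in ntp4-1, 19.3, 14.3 and 23.5 RPM in heso1-1 and 15.3, 16.8 and 20.4 RPM in urt1-1, against 18.3, 18.8 and 16.7 RPM in Col-0. The IRa bin on its own had log2 fold changes of 3.51 in ntp4-1 (limma adjusted p = 0.163, and 2.34e-05 with the block) and 3.02 in urt1-1 (0.469). In urt1-1 the summed level of both bins overlapped Col-0, so this value describes the split between the copies. In ntp4-1 replicate 1 was within the Col-0 range of the sum and the other two were above it. How the authors placed reads that match both copies is not given in the sources used here.

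**Figure D5:**
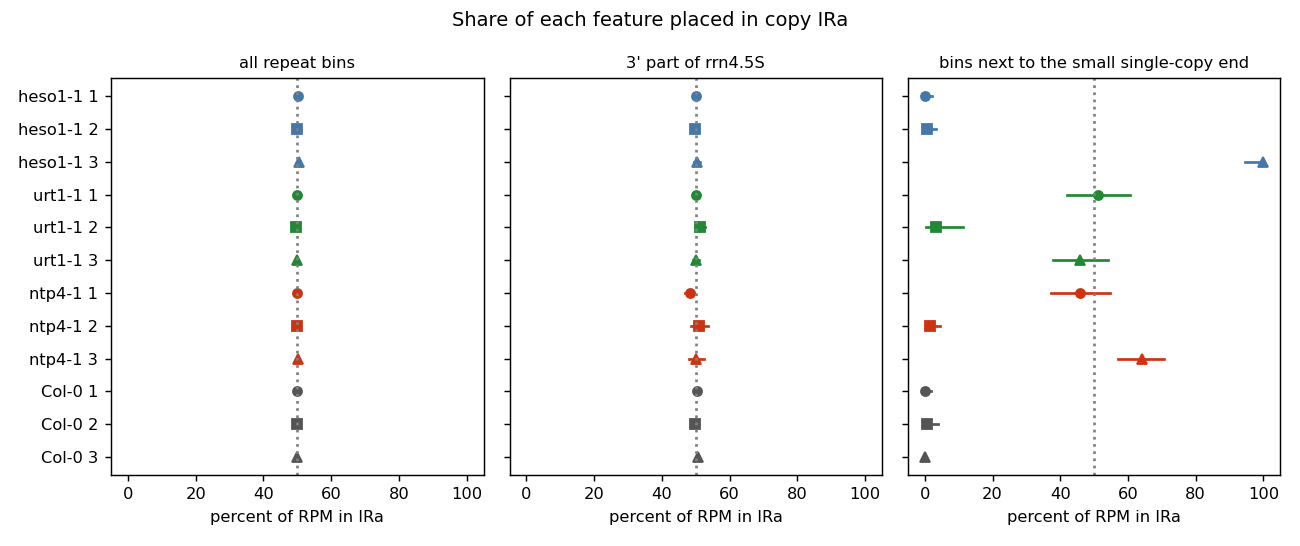
Percent of RPM placed in IRa per library, for all repeat bins, the 3′ part of rrn4.5S and the bins next to the small single-copy end; lines are exact 95% binomial intervals (none for Col-0 replicate 3) and the dotted line marks 50%. The first 2 panels lie at 48.2% to 51.2%, and the third spans 0% to 100%.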

How the data were processed

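Per the labels' protocols, RNA was extracted with TRIzol, treated with DNase I and made into libraries with the NEBNext small RNA kit. The authors deposited 1 table of RPM in 100 bp bins; the sources used here name neither the aligner nor how reads with several matching sites were placed. It holds 12 value columns, all mapped to samples. In 11 of them 100% of the values were whole multiples of 1 read's worth (tolerance 1e-06), which gave whole reads; 1 read was worth 0.0894 to 0.362 RPM. Col-0 replicate 3 gave no whole reads.

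Repeat ends and genes came from TAIR10.1 (RefSeq), against which 131 of 133 chloroplast gene identifiers of the deposited table matched by position. The reference holds rrn5S in IRa only, so its IRb copy was placed by mirroring. Bins and loci were tested with limma 3.58.1 (R 4.3.3, trend on, two-sided) on log2(RPM + 0.5), which understates the change of low bins, and single values with exact permutation tests (scipy 1.17.1, numpy 2.4.6; 369600 assignments for 4 genotypes). The p-values of the 10 peaks over 4 genotypes were added after the data were seen. Alternatives were edgeR 4.0.16 and DESeq2 1.42.0 on recovered reads, TMM and listed-bin scaling, other filters and pseudocounts, the replicate block, a joint fit and leaving out libraries. Code was tested on simulated data.

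Same-numbered libraries deviated together, with correlations of 0.567, 0.251 and 0.188 between heso1-1 and Col-0 and 0.648, 0.382 and 0.321 between ntp4-1 and Col-0; the numbers come from the sample titles. Replicate 3 of both mutants correlated best with Col-0 replicate 2. Named bins are the 10 highest of each copy, bins called, and otherwise the 5 smallest p-values in each direction. Members and lists were chosen with earlier results of these data known. Bins filtered out had a mean under 1 RPM.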

Additional observations from a re-analysis of the deposited data

How the results depend on the processing

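The counts of called repeat bins and loci depended on the fit for ntp4-1. Against 0 bins, 2 were called with no filter on low values, 2 with all 12 libraries in 1 fit, 24 with the replicate block, 54 without replicate 1 of both groups and 5 by DESeq2, and 0 to 17 with 1 library left out. Against 0 loci, 4 were called after TMM scaling, 2 with all 12 libraries, 5 with the replicate block, 15 without replicate 1 of both groups and 9 by DESeq2, and 0 to 6 with 1 library left out. The highest of both ranges came without ntp4-1 replicate 1. Over all bins the same fits called 0.0939%, 1.64%, 27.5%, 17.7%, 0.491% and at most 6.70%, and over all loci 0.947%, 9.56%, 23.2%, 27.1%, 3.42% and at most 10.9%. With all 12 libraries the repeat's share was below that of all features, at 0.971% of bins and 6.06% of loci. With the block it was below too, at 11.7% and 15.2%. It was above for bins with no filter (0.468%) and for loci after TMM scaling (12.1%). Without replicate 1 of both groups it was also above, at 24.9% of bins and 46.9% of loci. So it was by DESeq2 (2.43% and 27.3%) and without ntp4-1 replicate 1 (8.21% and 18.2%). In urt1-1, 1 bin was called with the replicate block, 1 by DESeq2 and 0 to 1 with 1 library left out, beside 0.566%, 0.513% and at most 0.303% of all bins. In heso1-1, 0 repeat bins and 0 loci were called under each alternative. The cause was not tested.

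With 1 library left out, the log2 difference of the repeat total was -0.308 to 0.0221 in heso1-1 and -0.106 to 0.309 in urt1-1, where it was -0.0195 without replicate 1 of both groups. The difference in the repeat's share of the chloroplast was -6.65 to 0.675 percentage points in heso1-1 and -2.16 to 5.42 in urt1-1. That in the share of the highest stretch was -4.78 to 0.821 in ntp4-1, and 1.80 without replicate 1 of both groups. The 4-genotype exact permutation p of the rRNA share was 0.0575 for IRb alone, 0.114 without replicate 1 of every genotype and 0.0252 to 0.111 with 1 library left out, and that of the highest stretch's share was 0.0242 to 0.321. Log2 fold changes with 1 library left out were -0.027 to 0.608 (IRb) and -0.042 to 0.606 (IRa) before rrn23S in urt1-1, and -0.130 to 0.227 and -0.144 to 0.223 at ndhB in urt1-1. In rrn4.5S in heso1-1 they were -0.299 to 0.378 and -0.318 to 0.357, and -0.00656 in IRa without replicate 1 of both groups.

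The replicate block was also run for single values, where 3 pairs cannot give an exact permutation p under 0.25 and no call was possible with or without it: the ntp4-1 repeat total gave 0.25. Between same-numbered libraries of urt1-1 and Col-0 the correlations were 0.392, 0.451 and -0.285. Urt1-1 replicate 3 correlated best with Col-0 replicate 1. The omissions of replicate 1 were chosen after seeing the data. Depth limits bins near 1 RPM, where 1 read of the shallowest library is worth 0.362 RPM.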
